A study of Mus musculus with 12 samples.

Results

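The abundance of input RNA was compared between macrophages of Ythdf2 conditional knockout (cKO) mice and of wild-type (WT) mice for every gene with a mean normalized count of at least 50 over the 4 input libraries. This rule kept 10721 of the 27013 genes in the authors' deposited table, and these held 99.7% of its summed mean counts. Both groups were macrophages grown from whole bone marrow for 7 days in 20 ng/ml M-CSF, a growth factor for this lineage, and then driven to the M1 type by 24 h of interferon gamma (20 ng/ml) together with LPS (100 ng/ml). Each genotype had 2 polyadenylated, fragmented input libraries, taken before m6A immunoprecipitation. The Cre driver, the deleted exons, the strain and the age of the mice are not given in the sources used here, nor is the origin of the replicates from separate mice or cultures, and the p-values then measure only the spread between these libraries, which may be technical.

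YTHDF2 is a cytoplasmic protein that binds N6-methyladenosine (m6A) in mRNA and recruits the machinery that shortens the poly(A) tail, so that its targets decay faster. M1-type macrophages respond to LPS through Toll-like receptor 4 and to interferon gamma through its receptor and the JAK-STAT pathway, and they induce antiviral genes, chemokines and antigen presentation. Transcripts of the rapid inflammatory response are often short-lived, and their level depends on decay as well as on transcription.

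The targeted gene was higher on the positive side of the comparison. Ythdf2 (chromosome 4, 132184916 to 132212256, GRCm38) had a log2 fold change of 1.10 ± 0.16 (SE) with a mean normalized count of 1762 and an adjusted p of 2.1e-09. The approximate levels that these values imply were 2404 on the positive side and 1120 on the negative side. The numerator of the ratio is not named in the table. If the knockout lowered this RNA, positive values mean more RNA in WT. What is known of the study, which reported stronger interferon signalling in macrophages without YTHDF2, would instead make positive values mean more RNA in cKO, because the interferon genes below are positive. The sides are therefore called positive, the side of Ythdf2, and negative throughout, and neither is assigned to a genotype. A count over the whole gene cannot show whether an exon is missing. All values per gene below are the authors' log2 fold changes with standard errors (SE) from the authors' deposited table, which came with no values per library.

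A total of 250 genes (2.33%) had an adjusted p under 0.05 and are referred to as called. Of these, 190 (1.77% of tested genes) were positive and 60 (0.560%) were negative. Called changes were mostly modest, with a median log2 fold change of 0.64 on the positive side and -0.59 on the negative side. Only 25 positive and 8 negative genes changed at least 2-fold. The median log2 fold change of all tested genes was -0.01, and 48.6% were above 0. The share of positive calls was 76.0%, and it was 65.8% (146 positive and 76 negative) when the fold changes were centred on the median of the upper 25% of genes by abundance, a shift of 0.04. With no filter on abundance, the calls were 143 positive and 37 negative.

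**Figure D1:**
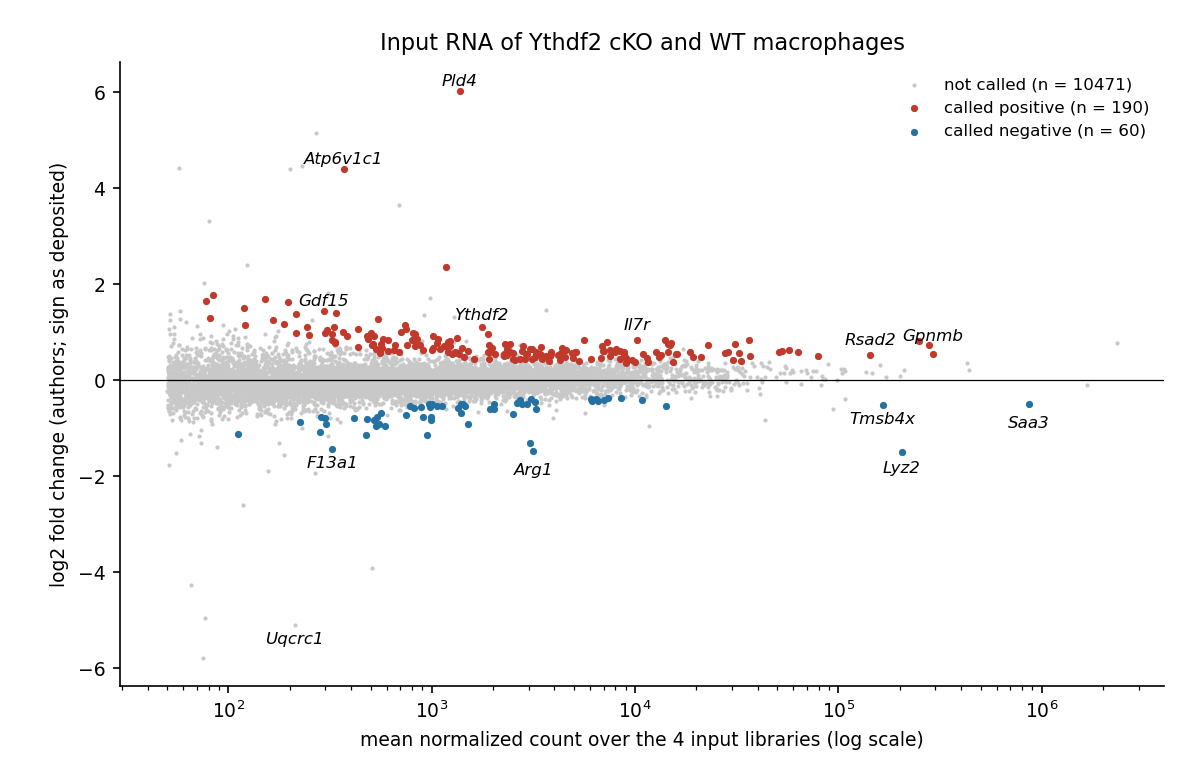
Log2 fold change of each tested gene (vertical axis, sign as deposited) against its mean normalized count over the 4 input libraries (horizontal log axis). Red points are the 190 genes called positive, blue points the 60 called negative and grey points the rest, and the smallest called size falls with abundance.

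The SE, and with it the smallest change that could be called, varied with abundance but not with abundance alone. In the lowest 25% by mean count, the median SE was 0.318, 0.559% of genes were called and their median size was 1.26 on the log2 scale. In the highest 25% the median SE was 0.123, 4.81% were called and the median size was 0.55. Some abundant genes had larger errors, such as Cd14 (mean count 9738, SE 0.615) and Lyz2 (204979, 0.334). Of 78 genes that differed at least 2-fold, 45 were not called, and these had a median SE of 0.914. Examples were Uqcrc1, a subunit of respiratory complex III, at -5.10 ± 2.25, and Atp5a1, a subunit of the ATP synthase, at 4.46 ± 2.15. Hnrnpu, a nuclear RNA-binding protein, stood at 4.41 ± 1.60 and the potassium channel gene Kcnk4 at -5.79 ± 2.46. At the abundance threshold, Rbm4 (mean count 50.1, -0.23 ± 0.47) and Gm11542 (50.1, -0.52 ± 0.46) lay just inside, and Sbsn (49.98, 0.48 ± 0.47) and Txn-ps1 (49.9, 0.10 ± 0.46) just outside.

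All 16 macrophage markers were tested, whereas 1 of 10 T and NK cell markers found in the table passed the abundance filter, and 0 of 5 mast cell and basophil markers, the highest of which had a mean count of 10.3. For neutrophils, 5 of 15 passed, with a highest mean count of 8496 (Csf3r), and 4 were under a mean count of 1. The 5 tested neutrophil markers had a median of -0.39, with 4 below 0. Of the B cell markers found, 1 of 9 passed, with a mean count of 3745. For dendritic cells 2 of 9 passed (highest 185), and for erythroid cells and megakaryocytes 2 of 8 (highest 1346). Markers of other types were present too, since 8 of 12 fibroblast and stroma markers passed, with a highest mean count of 580, and 3 of 6 endothelial markers in the table, with a highest of 1006. Macrophage markers themselves split, with 3 called positive and 3 negative and a median of -0.15. Lyz1, a lysozyme, stood at 0.86 ± 0.18, the galectin gene Lgals3 at 0.59 ± 0.15 and the lysosomal glycoprotein gene Cd68 at 0.40 ± 0.11. Lyz2, the main macrophage lysozyme, stood at -1.49 ± 0.33, the mannose receptor gene Mrc1 at -0.78 ± 0.21 and Itgam, the alpha chain of CR3, at -0.55 ± 0.11. Lyz1 and Lyz2 are closely related and may share reads, and their mean counts were 485 and 204979. The RNA is from whole cultures, in which fewer cells of a type and less RNA per cell cannot be told apart. Transcripts of 10 ribosomal RNA-like features, chosen after values were seen, took 9.72% of the summed mean counts, and 9 of them were called positive, with all 10 between 0.45 and 0.85. The tested fibroblast and stroma markers had a median of 0.32, with 6 of 8 above 0. The part of either set in the results for positive gene groups was not tested. The Y-linked genes Ddx3y (0.01), Uty (0.02), Kdm5d (-0.06) and Eif2s3y (-0.10) differed between the sides by less than their SE, and Xist had a mean count of 2.42.

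Interferon-induced genes lay almost all on the positive side. Of 43 tested type I interferon response genes, 13 were called positive and 0 negative by the authors' test (25 and 0 at an unadjusted p under 0.05), against the background of 1.77% called positive. At an unadjusted p under 0.05, 676 of all tested genes (6.31%) were positive and 399 (3.72%) negative, the background for the unadjusted counts given for other groups. The list had a median of 0.26, and 41 of its members were above 0. Of 17 tested interferon gamma GTPases, which attack the vacuoles of intracellular pathogens, 7 were called positive and 0 negative (15 and 0 at an unadjusted p under 0.05), with a median of 0.57 and all 17 above 0. The T-cell-specific GTPase gene Tgtp1 stood highest among those called, at 0.92 ± 0.19, with implied levels of 627 and 330. Gbp6, a guanylate-binding protein gene, stood at 0.57 ± 0.14, whereas Gbp9 (0.27 ± 0.12) and the immunity-related GTPase genes Irgm2 (0.27) and Igtp (0.28) were not called. In the Ifi200 family of DNA-sensing and nuclear proteins, Ifi205 (0.42 ± 0.11) and Mndal (0.39 ± 0.11) were called among 13 tested, and all members were above 0. Gbp7, Mndal, Ifi44, Isg20 and Slfn5 were no longer called when values were centred on abundant genes, nor when no filter was used.

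The strongest members of the type I list were copies of 1 gene family. Ifit genes encode proteins that bind viral RNA, and 5 of the 6 genes tested in a stretch of chromosome 19 (34550550 to 34662981) were called. Ifit3b stood at 0.79 ± 0.14 (implied levels 9246 and 5344) and Ifit1bl1 at 0.73 ± 0.12, above Ifit3 (0.56 ± 0.13), Ifit1 (0.56 ± 0.10) and Ifit2 (0.50 ± 0.13), although their intervals of 1 SE overlapped in part. Cmpk2 (0.60 ± 0.13), a nucleotide kinase, and Rsad2 (0.53 ± 0.13), which makes a chain-terminating nucleotide, are neighbours on chromosome 12. Members of near-identical families such as Ifit3 and Ifit3b, the Gbp genes, Trim30b and Trim30c, H2-Q6 and H2-Q7, and Naip1 and Naip2 may share reads, and the sources used here do not give how they were counted.

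The proximal promoters of interferon-induced genes often carried the core of an interferon-stimulated response element, written here as 2 copies of GAAA separated by 2 bases on either strand. In the 250 bases before to 50 after the start (RefSeq, GRCm38.p6), it was found in 22 of 144 positive genes with a promoter entry (15.3%), 3 of 49 negative genes (6.12%) and 345 of all 8311 tested genes with one (4.15%). A gene with several starts was counted once, if any of them had a match. Within the type I interferon list it was found in 18 of 32 (56.2%), and in all 8 interferon gamma GTPase genes with an entry. Among cytosolic ribosomal protein genes, which lay mostly on the negative side, it was found in 7 of 59 (11.9%). A gamma-activated site core, TTC and GAA separated by 3 bases, which may overlap the first motif, was found in 9.72% of positive, 4.08% of negative and 8.28% of all promoters. The palindromic E-box of lysosomal genes known as the CLEAR element was found in 1 of 144 positive and 0 of 49 negative promoters, against 200 of 8311 (2.41%). A match describes the letters in this window and not a bound site. The 250 bases before the transcript start of the RefSeq promoter entry are shown for 6 called genes, 5′ to 3′ in lower case, with each match of the first motif in capitals, to show the motif in genes chosen because they carry it. Other called interferon genes with an entry, such as Ifit2, Cmpk2 and Oasl1, had no match in this window. They are Ifit1 (chr19:34640639-34640888, plus strand), Ifit3 (chr19:34583279-34583528, plus), Rsad2 (chr12:26456453-26456702, minus), Isg15 (chr4:156200819-156201068, minus), Gbp2 (chr3:142620413-142620662, plus) and Cxcl10 (chr5:92348890-92349139, minus).
Ifit1: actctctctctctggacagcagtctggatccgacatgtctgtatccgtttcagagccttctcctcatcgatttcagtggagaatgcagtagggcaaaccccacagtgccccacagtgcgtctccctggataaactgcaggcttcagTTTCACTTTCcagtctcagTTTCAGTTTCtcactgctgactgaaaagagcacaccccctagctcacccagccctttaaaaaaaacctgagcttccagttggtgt
Ifit3: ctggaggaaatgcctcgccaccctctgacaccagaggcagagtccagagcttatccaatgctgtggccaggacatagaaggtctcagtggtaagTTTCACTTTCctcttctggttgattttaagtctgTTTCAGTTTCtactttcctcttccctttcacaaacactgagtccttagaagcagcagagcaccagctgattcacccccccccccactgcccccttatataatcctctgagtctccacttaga
Rsad2: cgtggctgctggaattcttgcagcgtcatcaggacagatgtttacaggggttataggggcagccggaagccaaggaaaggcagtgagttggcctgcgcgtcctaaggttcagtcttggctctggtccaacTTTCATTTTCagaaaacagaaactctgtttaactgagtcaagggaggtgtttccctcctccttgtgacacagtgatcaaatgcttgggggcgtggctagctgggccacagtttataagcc
Isg15: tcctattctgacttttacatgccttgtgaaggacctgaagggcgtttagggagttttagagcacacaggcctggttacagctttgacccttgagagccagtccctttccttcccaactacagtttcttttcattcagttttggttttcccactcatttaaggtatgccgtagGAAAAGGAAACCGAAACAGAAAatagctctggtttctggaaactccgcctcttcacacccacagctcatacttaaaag
Gbp2: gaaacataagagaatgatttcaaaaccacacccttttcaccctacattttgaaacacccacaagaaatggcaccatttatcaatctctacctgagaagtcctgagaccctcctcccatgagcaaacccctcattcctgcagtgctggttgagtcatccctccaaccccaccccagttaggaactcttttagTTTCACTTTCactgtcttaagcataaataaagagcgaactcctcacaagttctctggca
Cxcl10: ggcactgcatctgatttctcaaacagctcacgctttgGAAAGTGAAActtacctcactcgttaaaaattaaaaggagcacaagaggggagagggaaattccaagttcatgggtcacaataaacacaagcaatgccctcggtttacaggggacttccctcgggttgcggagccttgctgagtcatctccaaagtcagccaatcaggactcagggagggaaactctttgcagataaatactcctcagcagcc
The start used for Ifit3 lies inside the annotated gene (chromosome 19, 34583119 to 34588982), so the stretch printed for it does too. The matches began 104 and 85 bases before the start of Ifit1, 156 and 122 before that internal start of Ifit3, 120 before Rsad2 and 59 before Gbp2. In Isg15, which encodes a ubiquitin-like modifier, 3 overlapping matches began 78, 72 and 66 bases before the start. The Cxcl10 match lay farthest out, at 213 bases.

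Chemokines and cytokines were called mainly on the positive side, as were 76.0% of all called genes. Cxcl9 (0.62 ± 0.15) and Cxcl10 (0.55 ± 0.13), ligands of CXCR3 on activated T cells, and Cxcl11 (0.82 ± 0.14), annotated in RefSeq as a transcribed pseudogene, were all 3 of the tested genes in their cluster on chromosome 5. The only other called chemokine among 18 was Pf4, platelet factor 4, at -0.58 ± 0.17. Of 31 cytokines and growth factors, 5 were called positive and 0 negative, against 1.77% and 0.560% of all tested genes. Their median was 0.29. Gdf15, a stress-induced TGF-beta family hormone, had the largest called change of the group (1.45 ± 0.24, implied levels 430.5 and 158.1). Spp1, which encodes osteopontin, stood at 0.84 ± 0.16 with implied levels of 17938 and 10031. Il1rn, the interleukin-1 receptor antagonist, stood at 0.62 ± 0.12, Tnfsf10, the death ligand TRAIL, at 0.66 ± 0.18, and Csf1, the macrophage growth factor M-CSF that was also in the medium, at 0.61 ± 0.18. Il1a (1.46 ± 1.19), Inhba (1.32 ± 0.80) and Il6 (1.07 ± 0.47) had large values with large errors and were not called, and Il1b stood at 0.03. Csf1 lost its call in both the centred and the unfiltered setting, and Tnfsf10 and Pf4 in the unfiltered one.

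Among 34 cytokine receptors, 2 were called positive and 0 negative (7 and 0 at an unadjusted p under 0.05). Il7r, the interleukin-7 receptor, stood at 0.84 ± 0.14 with implied levels of 13074 and 7289, and Tnfrsf26 stood at 0.67 ± 0.17. Of 13 chemokine and chemoattractant receptors, Ccrl2, an atypical receptor that presents chemerin, was the only one called, at 0.64 ± 0.12. Ccr2 and Cx3cr1 stood at 0.45 and -0.76 and were not called. Of 24 JAK, STAT, IRF and SOCS genes, 0 were called in the authors' test (2 positive and 1 negative at an unadjusted p under 0.05), counts near the background, with Stat2 at 0.26. In the NF-kB list, Traf1 (0.47 ± 0.14) alone was called among 30, and its call was lost in both the centred and the unfiltered setting.

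**Figure D2:**
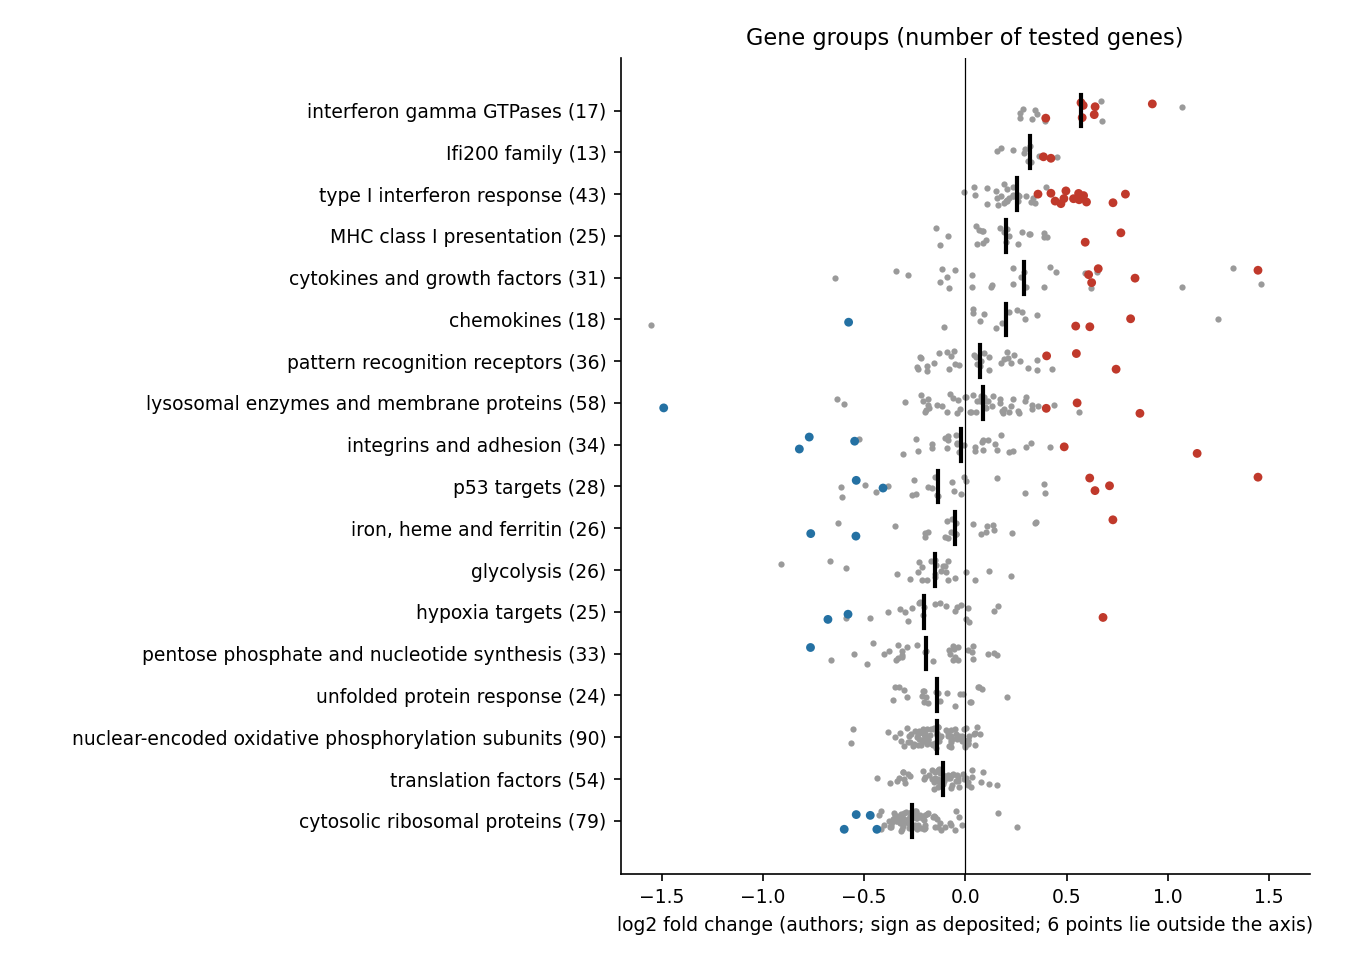
Log2 fold changes (horizontal axis, sign as deposited) of the tested genes of 18 groups, 1 point per gene, with called genes in red (positive) or blue (negative) and the median as a black bar. The interferon groups lie to the right of 0 and the cytosolic ribosomal proteins to the left, and 6 points lie outside the axis.

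Among 36 pattern recognition genes, 3 were positive and 0 negative, against 1.77% and 0.560% of all tested genes. Clec4e, the mycobacterial glycolipid receptor Mincle, stood at 0.74 ± 0.15 with implied levels of 38693 and 23089. Cd180, a Toll-like receptor homologue that dampens LPS signalling, stood at 0.55 ± 0.11. Naip1 (0.99 ± 0.26) and Naip2 (0.40 ± 0.11), receptors for bacterial secretion system proteins that act with Nlrc4, were the 2 calls among 21 inflammasome genes. Naip2 lost its call when values were centred. Nlrc4 (0.21), Nlrp3 (-0.08) and Pycard (-0.43) were not called.

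Paired and inhibitory receptors had 4 positive calls and 1 negative among 32. Sirpb1c, an activating signal regulatory protein, stood at 1.62 ± 0.34, and the antigen gene Ly6c2, which marks inflammatory monocytes, at 0.78 ± 0.18. Members of 1 family were called in opposite directions, since Cd300lf stood at 0.74 ± 0.14 and Cd300ld at -0.43 ± 0.13. Co-stimulatory genes also divided, with 2 calls on each side among 25. Slamf1 (1.07 ± 0.21), a self-ligand that also recognises bacteria, and Cd274 (0.42 ± 0.10), the ligand PD-L1, were positive, whereas Cd244a (-0.91 ± 0.25), the receptor 2B4, and Vsir (-0.39 ± 0.11), the checkpoint protein VISTA, were negative. Cd300ld and Vsir were not called when no filter was used. Cd200, the ligand of an inhibitory receptor on myeloid cells, belonged to no such list and stood at 0.68 ± 0.14.

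Lectin and scavenger receptors had 3 positive calls and 1 negative among 30. Ly75, the endocytic receptor DEC-205, stood at 0.97 ± 0.20 beside Clec4e and Lgals3, while Mrc1 was negative. Mfge8, which bridges apoptotic cells to phagocytes, was the only call among 37 Fc receptor, complement and phagocytosis genes, at 0.76 ± 0.17. In the MHC class I list, the non-classical genes H2-Q6 (0.77 ± 0.15) and H2-Q7 (0.59 ± 0.16) were the only calls among 25, with a median of 0.20 over the list. B2m, the shared light chain, stood at 0.07.

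Adhesion genes split between the sides, with 2 positive and 3 negative calls among 34. Itgb3, the beta chain of the vitronectin receptor, stood at 1.15 ± 0.31 and Alcam, a ligand of CD6, at 0.49 ± 0.14. Pecam1 (-0.82 ± 0.19), Itga9 (-0.77 ± 0.17) and Itgam were negative. Proteases did so too. Plau, the urokinase that activates plasminogen, was positive at 0.76 ± 0.18, whereas the neighbouring metalloprotease genes Mmp27 (-0.95 ± 0.21) and Mmp8 (-0.83 ± 0.19) were both negative. Alcam was not called after centring or without the filter. Of the 3 tested endothelial markers, Kdr (0.83 ± 0.19) and Vwf (0.64 ± 0.18) were positive and Pecam1 was negative, so this marker list did not move as 1 block. Col1a1 (0.56 ± 0.17) was the 1 call among 8 markers of fibroblasts and stroma (3 positive and 0 negative at an unadjusted p under 0.05), and it was not called after centring or without the filter.

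Semaphorins and their plexin receptors, which guide cell migration, held 4 calls among 13 tested genes. Plxna2 (0.74 ± 0.17), Sema4d (0.52 ± 0.14) and Plxnd1 (0.49 ± 0.13) were positive. Sema4c was negative at -0.91 ± 0.16, with implied levels of 1042 and 1955. Genes of the actin cytoskeleton gave 2 calls on each side among 59. Lsp1, a leukocyte actin-binding protein, stood at 0.71 ± 0.19 and the small GTPase gene Rhov at 0.71 ± 0.18. Tmsb4x, which sequesters actin monomers, stood at -0.52 ± 0.15 with implied levels of 135451 and 194416, and Coro1a, a regulator of Arp2/3, at -0.38 ± 0.11. Tmsb4x and Coro1a were not called when no filter was used.

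Lysosomal genes had 4 positive calls and 1 negative among 58, around a median of 0.09. Pld4, an endolysosomal exonuclease for single-stranded nucleic acid, had the largest change of any called gene, at 6.03 ± 0.53 (implied levels 2701 and 41.3). Its relative Pld3 stood at 0.26 and was not called. Atp6v1c1, a subunit of the V-ATPase that acidifies the lysosome, stood at 4.39 ± 0.27, while the other 16 subunits gave no call, and 15 of all 17 subunits were above 0. Gpnmb, a lysosomal glycoprotein, stood at 0.55 ± 0.15 with implied levels of 346579 and 236326. Lyz1 and Lyz2, which may share reads, are adjacent on chromosome 10 and were called in opposite directions. Rragd, a GTPase that couples lysosomes to mTORC1, was the only call among 44 autophagy and TFEB target genes, at 0.76 ± 0.19. Gpnmb and Cd68 were not called when no filter was used, and Cd68 was also lost after centring.

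Iron handling gave 3 calls among 26. Ncoa4, which delivers ferritin to the lysosome, was positive at 0.73 ± 0.14, and its pseudogene Ncoa4-ps, which may share reads with it, at 0.64 ± 0.16. Trf (-0.76 ± 0.17), the plasma iron carrier, and Slc39a14 (-0.54 ± 0.15), an importer of iron and zinc, were negative, the latter no longer called without the filter. Slc13a3, a transporter of dicarboxylates including itaconate, had the smallest adjusted p on the negative side (7.4e-21), at -1.31 ± 0.13 with implied levels of 1754 and 4348. Acod1, the enzyme that makes itaconate, was not called at 0.34 ± 0.13. Over all 172 tested solute carriers, 2 were positive and 4 negative. The anion transporter gene Slco4a1 (0.99 ± 0.23) and the creatine transporter gene Slc6a8 (0.51 ± 0.14) were positive, and the endosomal proton exchanger gene Slc9a9 (-0.91 ± 0.18) and the potassium chloride cotransporter gene Slc12a7 (-0.49 ± 0.13) were negative.

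Genes of energy metabolism lay mostly below 0, with few single calls. None of the 26 glycolysis genes was called by the authors' test (0 positive and 6 negative at an unadjusted p under 0.05), their median was -0.15 and 4 were above 0. Of 33 pentose phosphate and nucleotide synthesis genes, 7 were above 0 and the median was -0.19. The only call there was Adk, adenosine kinase, at -0.77 ± 0.17. Hypoxia targets had a median of -0.20 among 25, with Egln3 (-0.68 ± 0.19), an oxygen-sensing hydroxylase, and Ndrg1 (-0.58 ± 0.16) negative and the transcriptional repressor gene Bhlhe40 positive at 0.68 ± 0.18. Of 90 nuclear-encoded oxidative phosphorylation genes, 0 were called (1 positive and 7 negative at an unadjusted p under 0.05), with a median of -0.14 and 13 above 0. Arg1, which competes with nitric oxide synthase for arginine, stood at -1.48 ± 0.37, while Nos2, the inducible nitric oxide synthase, stood at 0.24 ± 0.14 and was not called. Egln3 lost its call without the filter.

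The translation machinery leaned the same way. Of 79 cytosolic ribosomal protein genes, 77 were below 0, the median was -0.26 and 4 were called negative, among them Rpl3 (-0.60 ± 0.17), Rps27l (-0.54 ± 0.15) and Rpsa (-0.44 ± 0.13). A further look at unadjusted values gave 44 negative and 0 positive under 0.05. Among 54 translation factors, 0 were called (0 positive and 6 negative at an unadjusted p under 0.05) and the median was -0.11. All 9 small nucleolar RNA host genes, spliced transcripts that carry snoRNAs in their introns, were below 0 with a median of -0.31 and 0 calls (0 positive and 2 negative at an unadjusted p under 0.05). Ribosomal protein genes are short, with a median genomic length of 3164 bases against 22205 over tested genes. Over all tested genes, the median log2 fold change was -0.03 in the 25% shortest by genomic length and 0.01 in the 25% longest, and the part of length in the group's shift was not tested. Rpl3, Rps27l and Rpsa were not called when no filter was used.

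Stress and growth control genes were mixed. Of 28 p53 targets, 4 were called positive and 2 negative (6 and 6 at an unadjusted p under 0.05). The list as a whole had a median of -0.14, with 9 members above 0 and 19 below. Beside Gdf15, the growth arrest genes Gadd45b (0.71 ± 0.17) and Gadd45g (0.61 ± 0.19) and the polo-like kinase gene Plk2 (0.64 ± 0.16) were positive, whereas Cdkn1a, the cell cycle inhibitor p21, stood at -0.41 ± 0.11. Hspa1b, an inducible HSP70, stood at 1.16 ± 0.27 and its neighbour Hspa1a, which may share reads with it, was not called at 0.89 ± 0.30. The mitosis genes Tpx2 (1.07 ± 0.21), a spindle assembly factor, and Mki67 (0.83 ± 0.19) were the only calls among 24, and the median of that list was -0.01. Gadd45g was not called in the centred or the unfiltered setting. The glucocorticoid target genes Sgk1 (0.58 ± 0.12) and Tsc22d3 (0.58 ± 0.18) were positive, and Cebpd, a transcription factor of the acute phase, was negative at -0.81 ± 0.19. Tsc22d3 lost its call after centring and without the filter.

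The other genes of the m6A pathway stayed close to 0. Ythdf2 was the only call among the 23 genes of this list, which had a median of -0.00. Ythdf1 stood at -0.00 ± 0.13, Ythdf3 at 0.08 ± 0.13, the methyltransferase genes Mettl3 and Mettl14 at -0.15 ± 0.18 and -0.09 ± 0.20, and the demethylase genes Fto and Alkbh5 at -0.03 ± 0.15 and 0.22 ± 0.13. Of 58 mRNA decay genes, 3 were positive and 0 negative. They were Tent5c (0.96 ± 0.19), a poly(A) polymerase that lengthens tails, Zfp36l2 (0.55 ± 0.14), which binds AU-rich elements, and Zc3h12c (0.45 ± 0.13), a relative of the RNase Regnase-1. Zc3h12c was not called in the centred or the unfiltered setting.

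**Figure D3:**
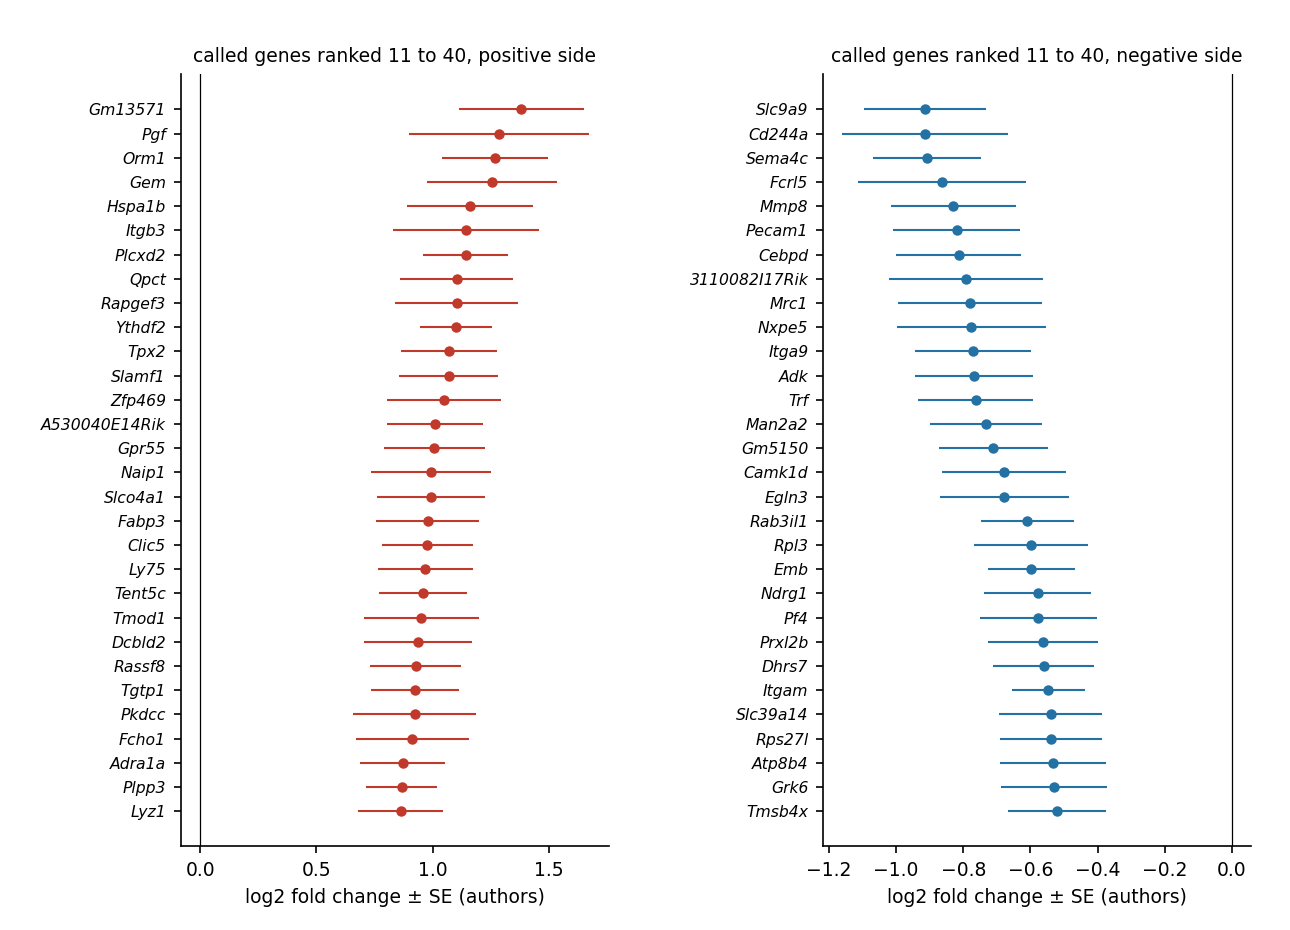
Log2 fold change (horizontal axis) with SE bars of the called genes ranked 11 to 40 by size on each side, 1 row per gene. The positive genes run from Gm13571 at 1.38 to Lyz1 at 0.86 and the negative genes from Slc9a9 at -0.91 to Tmsb4x at -0.52.

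Among called genes, the 10 largest positive changes were those of Pld4, Atp6v1c1, Gm15590, Mreg, Zfp992, Zfp462, Sirpb1c, Cdkn1c, Gdf15 and Dio2, and the 10 largest negative ones those of Lyz2, Arg1, F13a1, Slc13a3, Tmem176b, Tmem176a, Prune2, Abca9, Trpm2 and Mmp27. In the ranks below them on the positive side, Pgf, a VEGF family growth factor, stood at 1.29 ± 0.39, and its call was lost in the centred and the unfiltered setting. Orm1, an acute phase plasma protein, stood at 1.27 ± 0.23 with implied levels of 768 and 319. Gem, a small GTPase that inhibits calcium channels, stood at 1.26 ± 0.28, Rapgef3, the cAMP sensor Epac1, at 1.10 ± 0.26 and Qpct, which forms N-terminal pyroglutamate on chemokines, at 1.10 ± 0.24.

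Further down these ranks, Gpr55, a receptor for lysophosphatidylinositol, stood at 1.01 ± 0.22, Adra1a, an adrenergic receptor, at 0.87 ± 0.18 and Plpp3, which degrades extracellular lysophosphatidic acid, at 0.87 ± 0.15. Fabp3, a fatty acid carrier, stood at 0.98 ± 0.22 with implied levels of 667 and 338. Tmod1, which caps the pointed end of actin, stood at 0.95 ± 0.25 and Fcho1, which starts clathrin pits, at 0.91 ± 0.24.

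In the same ranks on the negative side, Fcrl5, an Fc receptor-like protein gene, stood at -0.86 ± 0.25, and Emb, a chaperone of monocarboxylate transporters, at -0.60 ± 0.13. Man2a2, a Golgi mannosidase, stood at -0.73 ± 0.17 and Rab3il1, an exchange factor for Rab GTPases, at -0.61 ± 0.14. Camk1d, a calcium-dependent kinase, stood at -0.68 ± 0.19, Grk6, a kinase of G protein-coupled receptors, at -0.53 ± 0.16 and Dhrs7, a short-chain dehydrogenase, at -0.56 ± 0.15. Higher up, the neighbouring membrane protein genes Tmem176b (-1.15 ± 0.15) and Tmem176a (-1.14 ± 0.19) were the only calls among 137 numbered Tmem genes. Abca9, an ATP-binding cassette transporter, stood at -1.07 ± 0.27, Trpm2, an oxidant-gated calcium channel, at -0.95 ± 0.24 and F13a1, the coagulation factor XIII subunit of macrophages, at -1.43 ± 0.28. Fcrl5, Grk6 and Prune2 were not called when no filter was used.

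Some called genes lay next to each other. Of 244 called genes with a RefSeq position, 36 lay within 100 kb of another, in 15 groups, and 12 groups had 1 direction. Beside the Ifit and Cxcl clusters, Gbp5, Gbp7, Gbp3 and Gbp2 were all 4 tested genes of their stretch on chromosome 3 (142496934 to 142638008). Opposite directions were found for Lyz2 and Lyz1 (which may share reads), Otulinl and Trio, and Sirpb1c and Gm5150. Otulinl and Trio were not called when no filter was used, and Trio was also lost after centring. Around Ythdf2, the direct neighbours Epb41 (-0.07 ± 0.12) and Gmeb1 (0.07 ± 0.19) were not called. Within 1 Mb, Ptafr, the receptor for platelet-activating factor, was the only call among 25 genes, at 0.61 ± 0.15. Within 20 Mb, 6 of 321 genes were called (1.87%), all 6 positive, against the background of 2.33% in both directions. The X chromosome had 0.915% of its genes called and chromosome 13 had 3.97%.

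**Figure D4:**
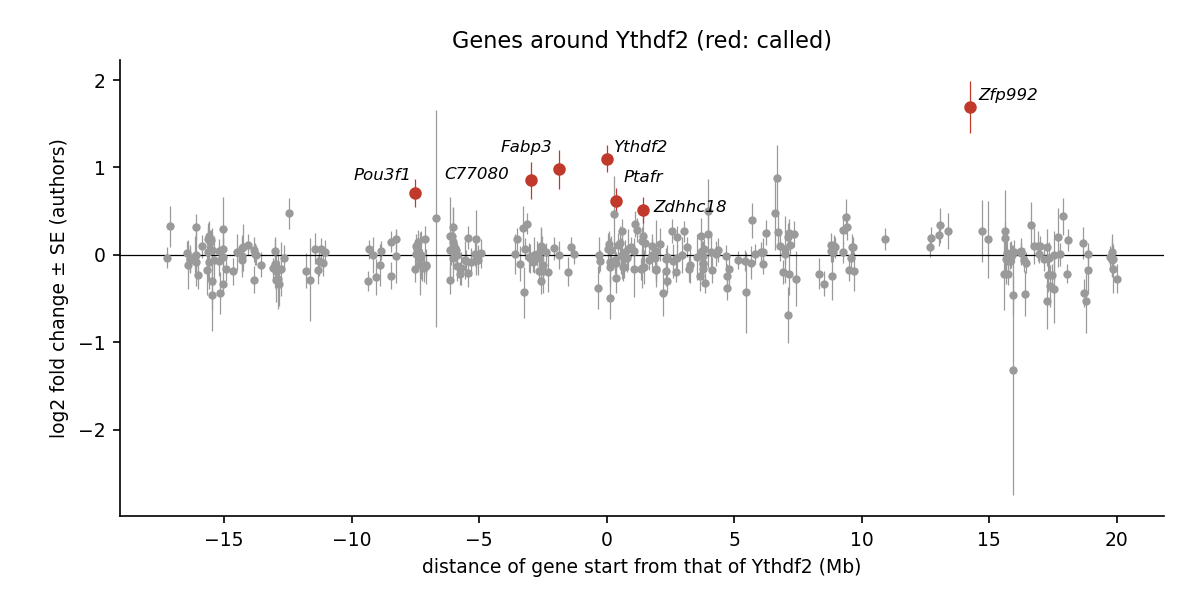
Log2 fold change with SE bars (vertical axis) against the distance of each gene's start from that of Ythdf2 (horizontal axis, Mb, with negative distances at lower coordinates). Red points are called, and apart from Ythdf2 itself 6 of the 321 genes within 20 Mb are red, all above 0.

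Marks and binding in WT cells were set beside the calls, since YTHDF2 acts on m6A-marked RNA. The deposited lists hold m6A peaks and YTHDF2 peaks of WT macrophages, and every peak name in the YTHDF2 list begins with the word m6a_peak, so what that list holds rests on the submitters' label. An m6A peak was present in 61.6% of positive genes, 53.3% of negative genes and 45.6% of all tested genes. Abundant genes had peaks more often, and uncalled genes of the same abundance deciles had one in 57.8% and 55.9%. A YTHDF2 peak was present in 75.8% of positive genes (78.9% in uncalled genes of the same deciles) and in 58.3% of negative genes (77.3%). Neither kind of peak was found in 12.6% of positive genes, and in 26.7% of negative genes against 13.6% of uncalled genes of their deciles. With YTHDF2 peaks of at least 3-fold enrichment, the shares were 42.1% (42.0%) and 28.3% (45.6%). No test of these differences was made. The median log2 fold change was 0.03 in genes with an m6A peak and -0.05 without, and 0.01 and -0.05 for YTHDF2 peaks. For YTHDF2 peaks of at least 3-fold it was 0.001 and -0.011. These medians were not matched for abundance. The median mean count was 1342 with an m6A peak and 383 without, and 1191 and 245 for YTHDF2 peaks. Over all tested genes, the median log2 fold change was -0.05 in the lowest 25% by mean count and 0.04 in the highest.

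**Figure D5:**
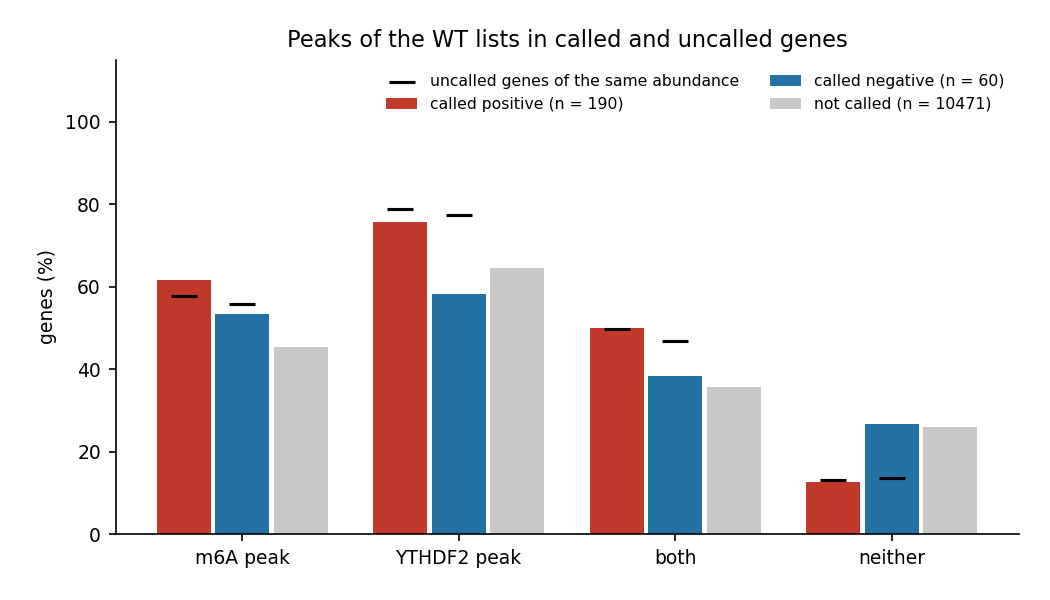
Share of genes (vertical axis, %) with an m6A peak, a YTHDF2 peak, both or neither in WT cells, for genes called positive (red), called negative (blue) and not called (grey), with black ticks for uncalled genes of the same abundance deciles. Positive bars lie near their ticks, and the negative bar for YTHDF2 peaks (58.3%) lies below its tick (77.3%).

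Single called genes differed widely in their peaks. Cflar, the caspase-8 inhibitor cFLIP (0.38 ± 0.11), and Ankrd50 (0.55 ± 0.16), an endosomal recycling protein gene, had 7 m6A peaks each. Plk2, Slfn5, the transcriptional repressor gene Mxd1 and Plekhg1 had 6 each. Vwf, von Willebrand factor, had 12 YTHDF2 peaks and the strongest one, at 12.1-fold by the authors' value. It was followed by Adk at 11.7-fold, Naip1 at 8.65-fold and Nes, the intermediate filament nestin (0.74 ± 0.22), at 8.62-fold. Of the genes with the largest changes, Pld4 and Atp6v1c1 had 0 peaks of either kind and Lyz2 had 1 of each. The peaks are of WT cells, and neither side is assigned to WT here. Pld4 and Atp6v1c1 were far lower on the negative side, and if that side is WT, little RNA was left there to give a peak. If the positive side is WT, this limit does not apply. Because WT is not assigned to a side, their lack of peaks cannot show whether they are marked or bound. Among the groups, 74.4% of type I interferon genes were in the m6A list and 88.4% in the YTHDF2 list. Ribosomal protein genes were in them at 20.3% and 34.2%. Over all tested genes the shares were 45.6% and 64.7%, and in the 25% of highest abundance 67.8% and 88.7%. The median mean count was 11213 for the interferon list and 3552 for the ribosomal one, both within that 25%. Cflar, Ankrd50 and Nes lost their calls in both the centred and the unfiltered setting.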

How the data were processed

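Input libraries of m6A sequencing from WT and Ythdf2 cKO M1-type macrophages (2 each) were compared through 1 table of gene values. Its columns carry the names DESeq2 gives its results, per the file headers. The mean normalized count is a signal deposited by the authors, and the log2 fold change, its standard error, the Wald statistic (a score), the p-value and the adjusted p-value were deposited by the authors as well. The WT m6A peaks were deposited as gene symbols and positions, and the YTHDF2 list with a fold enrichment (a ratio) and a −log10 p that the authors deposited. HISAT2, HOMER, ChIPseeker and mm10 are named in the submitters' processing notes without roles.

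The design planned a count test, but the file holds no values per library, so the authors' test is used and every call is their adjusted p under 0.05. The depth of each library is unknown, and precision is given by the standard errors. Genes with a mean count of at least 50 were kept. Levels implied for each side were computed from the mean count and the fold change, with equal weight for both sides, and are approximate. Members and 66 gene lists, 57 of pathways and 9 of markers, with 29 symbol families, were chosen with earlier results of these data known. Lists are described by counts and medians beside all tested genes, with no test. Named genes were the targeted gene and its neighbours, at most 6 called members of a list by adjusted p, defining members, called genes ranked 11 to 40 by size, those with the most or strongest peaks, genes at the abundance threshold, and large changes without a call; the 10 largest on each side, Cd200 and other genes beyond these were named after values were seen. Positions, synonyms and promoters are from RefSeq (GRCm38.p6), with positions for 10539 tested genes. The scripts used Python 3.11.15, pandas 2.3.3, NumPy 2.4.6 and SciPy 1.17.1. The code of the Wald tests and of the adjustments was tested on simulated fold changes, and that of the centring was not. Alternatives were no filter, minimum mean counts of 100 and 500 (and 10 for lists), 2 centrings, Holm, a threshold of 0.1 and a test against 1.5-fold. Some genes are not reported here.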

Additional observations from a re-analysis of the deposited data

How the results depend on the processing

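Of the 250 calls, 177 remained with no filter, 247 and 211 with minimum mean counts of 100 and 500 (39 genes lost under the latter were not tested there), 206 when centred on abundant genes and 248 when centred on all genes. Without the filter, negative calls dropped to 37. Holm adjustment left 61 calls, 52 positive and 9 negative. A test against a change of 1.5-fold left 3, the positive Pld4 and Atp6v1c1 (2) and the negative Slc13a3 (1), so most calls establish a difference from 0 and not its size. No called gene changed direction in these settings. Centring turned the sign only of list medians within 0.04 of 0, such as DNA replication and mRNA decay. No paired analysis was possible because the table holds no values per library. For the same reason leaving out each replicate, the replicate block and the edgeR and DESeq2 fits on counts were not run. The depth of the libraries is unknown, and the median SE was 0.318 in the 25% of genes of lowest abundance against 0.123 in the highest.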

Other observations

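Some called genes fell in no list or family, 96 of 250. On the positive side, Procr, the endothelial protein C receptor, stood at 0.58 ± 0.13, F10, coagulation factor X, at 0.52 ± 0.15 and Anpep, an aminopeptidase, at 0.46 ± 0.13 in the authors' deposited table. The heparan sulfate proteoglycan gene Sdc1 stood at 0.54 ± 0.14. Regulators of transcription and signalling among them were Malt1, the paracaspase of NF-kB signalling (0.67 ± 0.16), the POU factor gene Pou3f1 (0.71 ± 0.16) and the tyrosine kinase gene Src (0.57 ± 0.15). On the negative side, Pygl, liver glycogen phosphorylase (-0.50 ± 0.13), and Pon2, a paraoxonase (-0.51 ± 0.13), belong to metabolism. Saa3, an acute phase protein of very high abundance, stood at -0.49 ± 0.12 with implied levels of 716066 and 1007633, opposite to the acute phase gene Orm1 at 1.27 ± 0.23. The genes in this paragraph were picked with their values in view. Anpep was not called after centring on abundant genes or without the filter.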
